A study of Rattus norvegicus with 24 samples.

Results

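Cortical excitatory neuron genes were followed through the nucleus accumbens (NAc) of rat pups whose mother or grandmother had received oxycodone (oxy). The genes were taken by symbol. They are Neurod6, Neurod2, Tbr1, Fezf2, Emx1, Slc17a7 and Nptx2, and all 7 were found once each among the 23950 genes of the tables. Levels are FPKM, fragments scaled to transcript length and to the fragments of the library, so genes can be compared per length. The 24 libraries came from Sprague Dawley pups at postnatal day (P) 14, with 4 pups from separate litters in each of 6 groups. In the in utero (IUO) line, F0 dams were gavaged with oxy from 10 mg/kg/day up to 15 mg/kg/day before mating and then until weaning. In the postnatal (PNO) line, F0 dams received 15 mg/kg/day after giving birth until weaning. The saline (SAL) line is the control. F1 pups were the offspring of these dams and were never dosed themselves. F2 pups were bred from F1 females. The groups are written F1 SAL, F1 PNO, F1 IUO, F2 SAL, F2 PNO and F2 IUO. Each library is the RNA of a tissue piece cut out with a brain matrix, and sex was not used here.

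The NAc is part of the ventral striatum. Its projection neurons are inhibitory, and the cell bodies of excitatory pyramidal neurons lie in the cortex and related regions that send axons into it. Pyramidal neurons are specified by transcription factors and release glutamate that a vesicular transporter has packed into synaptic vesicles. Emx1 is a homeobox factor of the dorsal forebrain. Neurod2 and Neurod6 are basic helix-loop-helix factors of young pyramidal neurons, and Tbr1 and Fezf2 specify neurons of the deep layers. Slc17a7 encodes VGLUT1, the vesicular glutamate transporter of most cortical neurons. Nptx2 encodes a secreted neuronal pentraxin that gathers AMPA receptors at excitatory synapses. In dissected tissue, fewer cells of a type and less RNA per cell cannot be told apart.

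The labelled tissue was checked against 10 genes of striatal projection neurons, and none was at 0 in any library. The most abundant of them were Ppp1r1b, at a mean of 355 FPKM, Penk at 213 and Tac1 at 60.9. This shows that striatal RNA was present and cannot tell how pure each piece was. The most abundant markers of other regions varied widely. The choroid plexus gene Ttr ran from 1.75 to 12103.13 FPKM, Tcf7l2 of the thalamus from 5.2 to 138.13 and Avp of the hypothalamus from 1.09 to 199.24. Summed over genes, a library held from 535866 to 766781 FPKM, with 4782 to 7532 genes at 0. Sequencing depth is unknown here, and intervals for counting error cannot be given. A check found 0 libraries with identical values.

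The promoters of Neurod6 and Neurod2 are shown because these related factors moved together across libraries, as described further on. Each stretch is the 250 bases before the annotated start in RefSeq, assembly GRCr8, read 5' to 3' on the gene's strand, and capitals mark the E-box CAGATG, which reads as CATCTG on the other strand. The Neurod6 stretch is chr4:86180156-86180405, minus strand, and the Neurod2 stretch is chr10:83824278-83824527, minus strand.
Neurod6: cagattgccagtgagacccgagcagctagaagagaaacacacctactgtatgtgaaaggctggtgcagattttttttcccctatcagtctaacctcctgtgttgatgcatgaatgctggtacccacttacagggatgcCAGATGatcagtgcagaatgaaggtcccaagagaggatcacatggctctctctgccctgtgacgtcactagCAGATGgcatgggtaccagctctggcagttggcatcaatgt
Neurod2: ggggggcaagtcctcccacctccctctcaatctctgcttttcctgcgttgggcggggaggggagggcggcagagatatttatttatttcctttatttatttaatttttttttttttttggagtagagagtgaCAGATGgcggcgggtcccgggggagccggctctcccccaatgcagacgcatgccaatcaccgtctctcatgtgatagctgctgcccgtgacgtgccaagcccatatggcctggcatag
In Neurod6 the E-box was found from 112 to 107 and from 41 to 36 bases before the start, and in Neurod2 from 118 to 113 bases before it. All 7 genes matched a RefSeq promoter, and 2 of 7 held this E-box, against 14.0% of 33465 promoters of the same length. The palindromic E-box CAGCTG was in 0 of 7 and in 12% of promoters. TAATTA, a core read by many homeodomain proteins and also a palindrome, was in 1 of 7 (Tbr1) and in 4.86% of promoters. Emx1, Tbr1 and Slc17a7, whose levels also moved with Neurod6 and Neurod2, held 0 matches to CAGATG. The matches describe letters only.

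Slc17a7 was by far the most abundant of the 7 genes, with a mean of 166 FPKM over 24 libraries, above 98.2% of all genes. Nptx2 followed at 26.5 FPKM, Neurod6 at 14.1, Tbr1 at 9.73, Fezf2 at 7.75 and Neurod2 at 4.35. Emx1 was the lowest at 1.49 FPKM, above 46.6% of all genes.

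The transporter Slc17a7 varied over a wide range between libraries of the same group. In F1 SAL its level was 225.60, 61.33, 3.94 and 270.80 FPKM in replicates 1 to 4, in F1 PNO it was 198.67, 125.08, 235.25 and 147.38, and in F1 IUO it was 157.14, 179.58, 171.49 and 194.39. F1 IUO was thus the tightest group, and F1 SAL held both a library near 0 and one of the highest of all. In F2 SAL the level was 143.94, 186.80, 112.84 and 149.50 FPKM, in F2 PNO 18.41, 149.85, 101.34 and 251.87, and in F2 IUO 230.58, 276.94, 135.09 and 253.71. All F2 groups overlapped, and 3 of 4 F2 IUO libraries lay above every F2 SAL library. The coefficient of variation was 91.1% in F1 SAL and 8.86% in F1 IUO. The highest library exceeded the lowest 70.3-fold.

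Neurod6 spanned 30.1-fold. Its level was 13.81, 3.29, 1.0 and 20.76 FPKM in F1 SAL, 16.40, 13.74, 14.60 and 16.75 in F1 PNO, and 16.23, 15.96, 9.80 and 12.95 in F1 IUO. The exposed F1 groups lay inside the range of F1 SAL. In the F2 generation Neurod6 was 8.43, 14.28, 7.96 and 6.56 FPKM in F2 SAL, 2.04, 17.20, 12.04 and 19.96 in F2 PNO, and 30.08, 28.58, 17.82 and 16.99 in F2 IUO. Every F2 IUO library was above every F2 SAL library and above every F1 IUO library. Neurod2, its close relative, spanned 57.9-fold, from 0.15 FPKM in F1 SAL replicate 3 to 8.69 in F2 IUO replicate 2.

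Fezf2 spanned 30.6-fold but followed a different order of libraries. Its level was 2.46, 0.82, 2.45 and 12.31 FPKM in F1 SAL, 1.94, 5.68, 3.30 and 7.93 in F1 PNO, and 5.33, 7.91, 5.85 and 8.79 in F1 IUO. F1 SAL replicate 4 stood well above the rest of its group. In F2 SAL Fezf2 was 5.32, 13.94, 3.43 and 1.5 FPKM, in F2 PNO 2.88, 7.25, 2.73 and 19.14, and in F2 IUO 25.12, 20.58, 13.50 and 5.88. F2 IUO held the 2 highest values of all 24 libraries. Tbr1, the other deep-layer factor, spanned 33.7-fold, from 0.63 FPKM in F2 PNO replicate 1 to 21.24 in F2 IUO replicate 2. Emx1 was listed at 0 in 1 library, F1 SAL replicate 3, and reached 3.58 FPKM in F2 IUO replicate 1.

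Nptx2 was the steadiest of the 7 genes and spanned 4.86-fold. Its level was 36.02, 17.69, 12.22 and 23.81 FPKM in F1 SAL, 31.53, 36.17, 42.53 and 30.11 in F1 PNO, and 19.19, 19.14, 24.87 and 40.69 in F1 IUO. F1 PNO was the group with the narrowest spread. In F2 SAL it was 22.83, 16.32, 31.19 and 28.65 FPKM, in F2 PNO 8.76, 25.57, 33.37 and 18.15, and in F2 IUO 39.41, 33.38, 23.18 and 20.14. The F2 groups overlapped throughout.

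**Figure D1:**
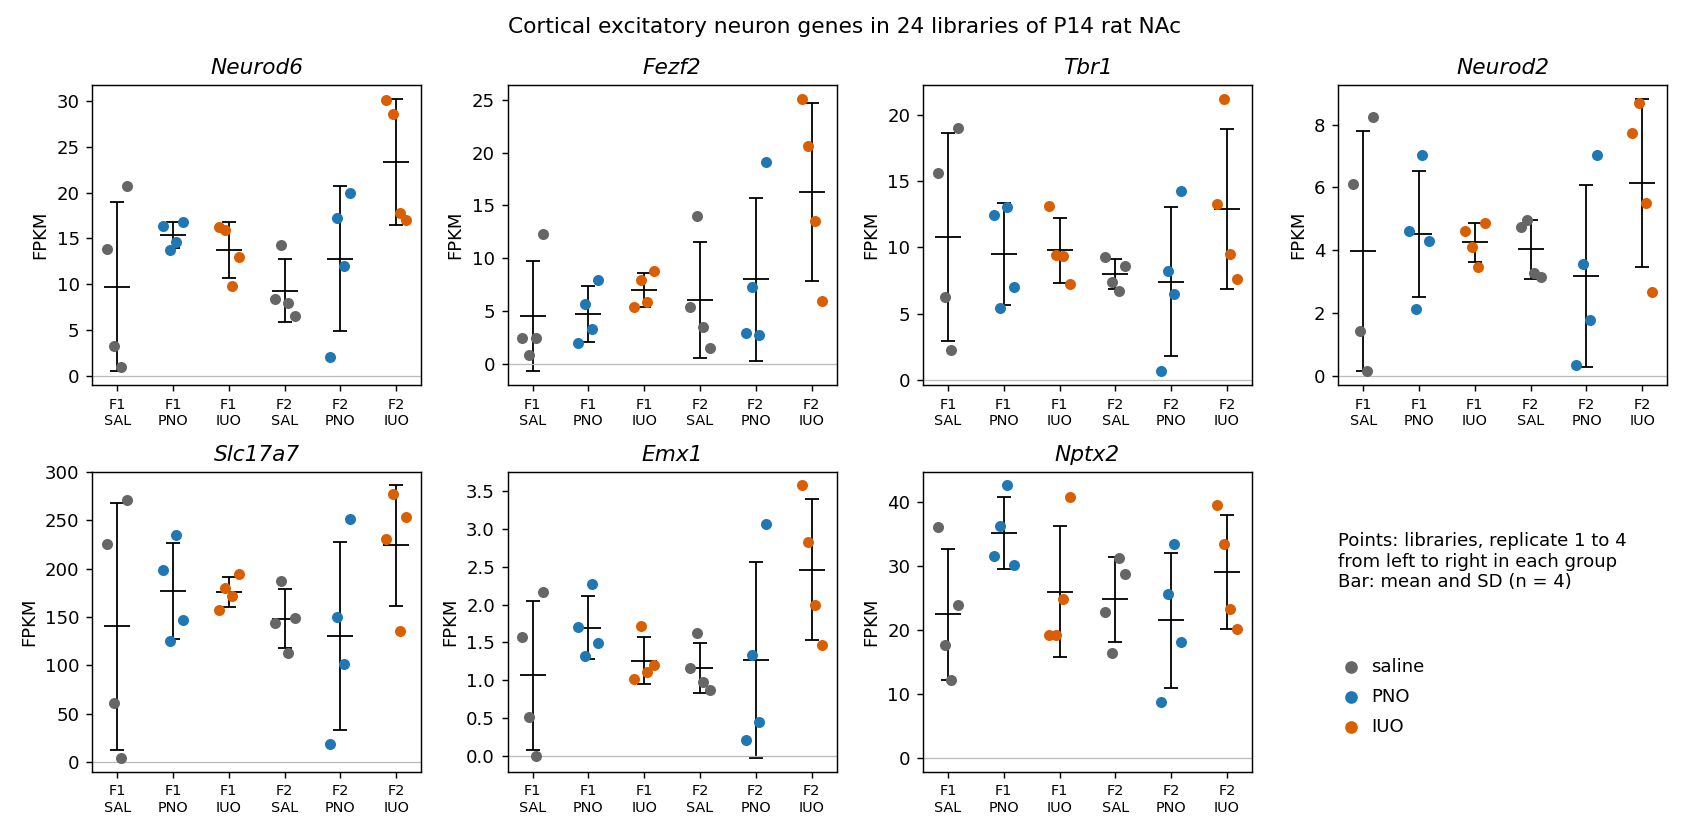
FPKM of each of the 7 genes (vertical axes, from 0) in the 6 groups, with 1 point per library and bars for the mean and SD of 4 libraries. F2 IUO has the highest mean for every gene except Nptx2, and F1 SAL and F2 PNO spread most widely for Slc17a7 and Neurod2.

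By group means, F2 IUO was the highest group for 6 of 7 genes. Neurod6 reached 23.4 ± 6.92 FPKM (SD, n = 4) in F2 IUO, then 15.4 ± 1.44 in F1 PNO, 13.7 ± 3.02 in F1 IUO, 12.8 ± 7.89 in F2 PNO, 9.71 ± 9.24 in F1 SAL and 9.31 ± 3.41 in F2 SAL. Fezf2 followed with 16.3 ± 8.42, against 8.0 ± 7.72 in F2 PNO, 6.97 ± 1.65 in F1 IUO, 6.05 ± 5.49 in F2 SAL, 4.71 ± 2.64 in F1 PNO and 4.51 ± 5.26 in F1 SAL. Slc17a7 was 224 ± 62.3 in F2 IUO, 177 ± 49.8 in F1 PNO, 176 ± 15.6 in F1 IUO, 148 ± 30.3 in F2 SAL, 140 ± 128 in F1 SAL and 130 ± 97.5 in F2 PNO. The order of the groups below F2 IUO thus differed from gene to gene. Emx1 was 2.46 ± 0.933 in F2 IUO, 1.70 ± 0.414 in F1 PNO, 1.26 ± 0.316 in F1 IUO, 1.26 ± 1.30 in F2 PNO, 1.16 ± 0.335 in F2 SAL and 1.06 ± 0.984 in F1 SAL. Tbr1 ranged from 12.9 ± 6.03 in F2 IUO to 7.41 ± 5.62 in F2 PNO, and Neurod2 from 6.15 ± 2.67 to 3.18 ± 2.89 in the same groups. Nptx2 was highest in F1 PNO, at 35.1 ± 5.60, and lowest in F2 PNO, at 21.5 ± 10.5. Of the 35 steps between neighbours in these orders, 33 were smaller than the larger SD of the pair. The other two were Neurod6 from F2 IUO to F1 PNO and Emx1 from F1 PNO to F1 IUO. Between 16.2% (Tbr1) and 35.1% (Fezf2) of the spread of a gene on the log2 scale lay between groups, where 21.7% of the degrees of freedom lie.

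In F1 SAL replicate 3 and F2 PNO replicate 1, levels were low for nearly the whole set. Each was among the 2 lowest of 24 libraries for 6 of 7 genes and the lowest of its group for the same 6, all except Fezf2. The mean of the 7 genes on the log2(FPKM + 0.1) scale was 0.44 and 0.96 in these libraries, 2.05 in the next lowest (F1 SAL replicate 2) and 4.50 in the highest (F2 IUO replicate 2). In F1 SAL replicate 3, Neurod2 was 0.15 FPKM and Tbr1 2.27, and in F2 PNO replicate 1 they were 0.34 and 0.63. The 10 striatal genes summed to 1380 FPKM in F1 SAL replicate 3, the highest of its group, and to 1084 in F2 PNO replicate 1, also the highest of its group. As a mean on the log2 scale the striatal list was the highest of its group in F1 SAL replicate 3 (6.42) and the lowest in F2 PNO replicate 1 (5.55, against up to 5.78). The 5 oligodendrocyte genes summed to 3153 FPKM in F2 PNO replicate 1, the highest of 24 libraries, with 1980 in the next, and to 1515 in F1 SAL replicate 3, within the range of its group. At the other end, F1 SAL replicate 4 and F2 PNO replicate 4 were the highest of their groups for 6 of 7 genes, all except Nptx2. The part of the dissection in these differences was not tested.

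**Figure D2:**
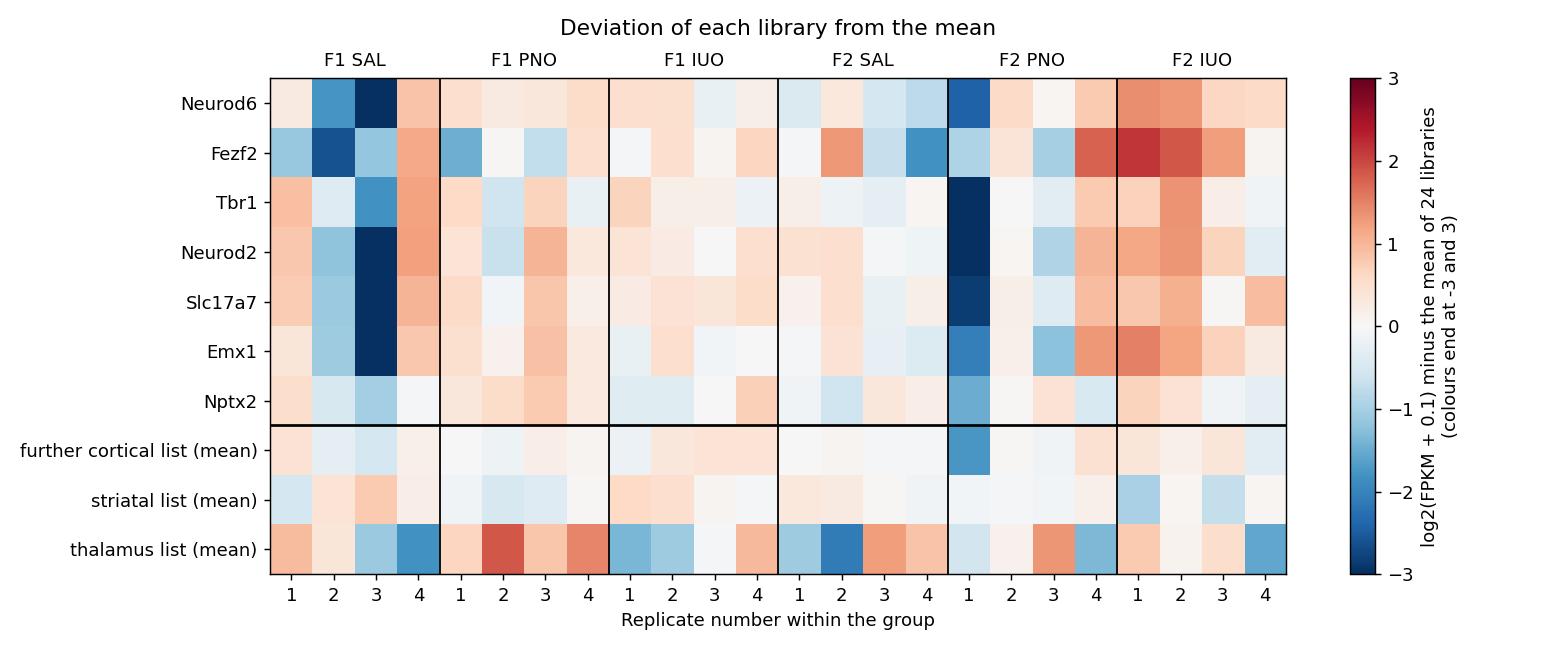
Deviation of each library (columns, by group and replicate) from the mean of 24 libraries on the log2(FPKM + 0.1) scale, for the 7 genes and, below the line, the means of 3 marker lists. F1 SAL replicate 3 and F2 PNO replicate 1 are deep blue for nearly all 7 genes, and the thalamus list varies in another order.

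The question of the first comparison was whether the set differed between pups of the grandmaternal IUO line and saline pups of the same generation. All 7 genes had a higher mean in F2 IUO than in F2 SAL, and 3 were called higher by a rule that asks for an unadjusted p under 0.05 and for mean FPKM that differ 2-fold or more. These were Neurod6 (2.51-fold), Fezf2 (2.69-fold) and Emx1 (2.12-fold). Over all genes tested the same rule called 2.18%, and 0.503% in the higher direction. The median log2 fold change of the 7 genes was 0.59, against -0.08 over all genes. The genes were chosen with results of these libraries known, so the count is a description.

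Neurod6 rose by 1.33 on the log2 scale (SE 0.272, limma p 0.000719, adjusted p = 0.259 over all genes). All 4 F2 IUO libraries were above all 4 F2 SAL libraries, and 5.11% of all genes had groups that did not overlap. Its exact permutation p, two-sided, was 0.0286, the smallest that 4 against 4 libraries can give. Fezf2 rose by 1.66 (SE 0.643, p 0.0286, adjusted p = 0.567), with 2 of 4 F2 IUO libraries above all F2 SAL libraries and an exact permutation p of 0.0857. Emx1 rose by 0.99 (SE 0.333, p 0.0150, adjusted p = 0.543), with 3 of 4 libraries above and an exact permutation p of 0.0571. Slc17a7 had a log2 fold change of 0.57 (SE 0.232, p 0.0354, adjusted p = 0.567) and a 1.51-fold ratio. It was not called at 2-fold, and at 1.5-fold it was the 1 gene added, which makes 4 of 7. Tbr1 (0.59), Neurod2 (0.50) and Nptx2 (0.22) did not reach an unadjusted p under 0.05. An unadjusted p under 0.05 was found for 4 of the 7 and for 8.49% of all genes, and no gene of the set had an adjusted p under 0.05. Without F2 IUO replicate 1, or without F2 SAL replicate 4, Neurod6 was the 1 gene still called. With the spread estimated from all 24 libraries, Fezf2 was the 1 gene called and Neurod6 had a p of 0.0624.

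F2 IUO was also compared with F2 PNO. The F0 dams of these lines differed in the start, length and dose schedule of treatment, which cannot be told apart here. All 7 genes were higher in F2 IUO, with log2 fold changes from 0.54 (Nptx2) to 1.41 (Neurod2) and a median of 1.29, against -0.01 over all genes. None was called (limma, 0 with an unadjusted p under 0.05, smallest adjusted p = 0.744), where the rule called 1.8% of all genes and 7.07% had an unadjusted p under 0.05. The values turned on F2 PNO. Without its low replicate 1 the median was 0.49, with 0 called. Without its high replicate 4 it was 1.82, with 5 called (Fezf2, Emx1, Slc17a7, Neurod6 and Neurod2). The shares of all genes given here are from the fits with every library. Fezf2 alone was called without F2 IUO replicate 4. F2 PNO against F2 SAL gave log2 fold changes from -0.91 (Neurod2) to 0.37 (Fezf2), with 5 of 7 lower and a median of -0.39, against -0.08 over all genes. Again 0 were called and 0 had an unadjusted p under 0.05 (limma), against 2.15% and 10.8% of all genes. Without F2 PNO replicate 1 the median was 0.14 and 6 of 7 were higher, and without replicate 4 it was -0.98 and 0 were higher, with Neurod2 called. The groups F2 SAL, F2 PNO and F2 IUO each enter more than 1 of these comparisons.

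**Figure D3:**
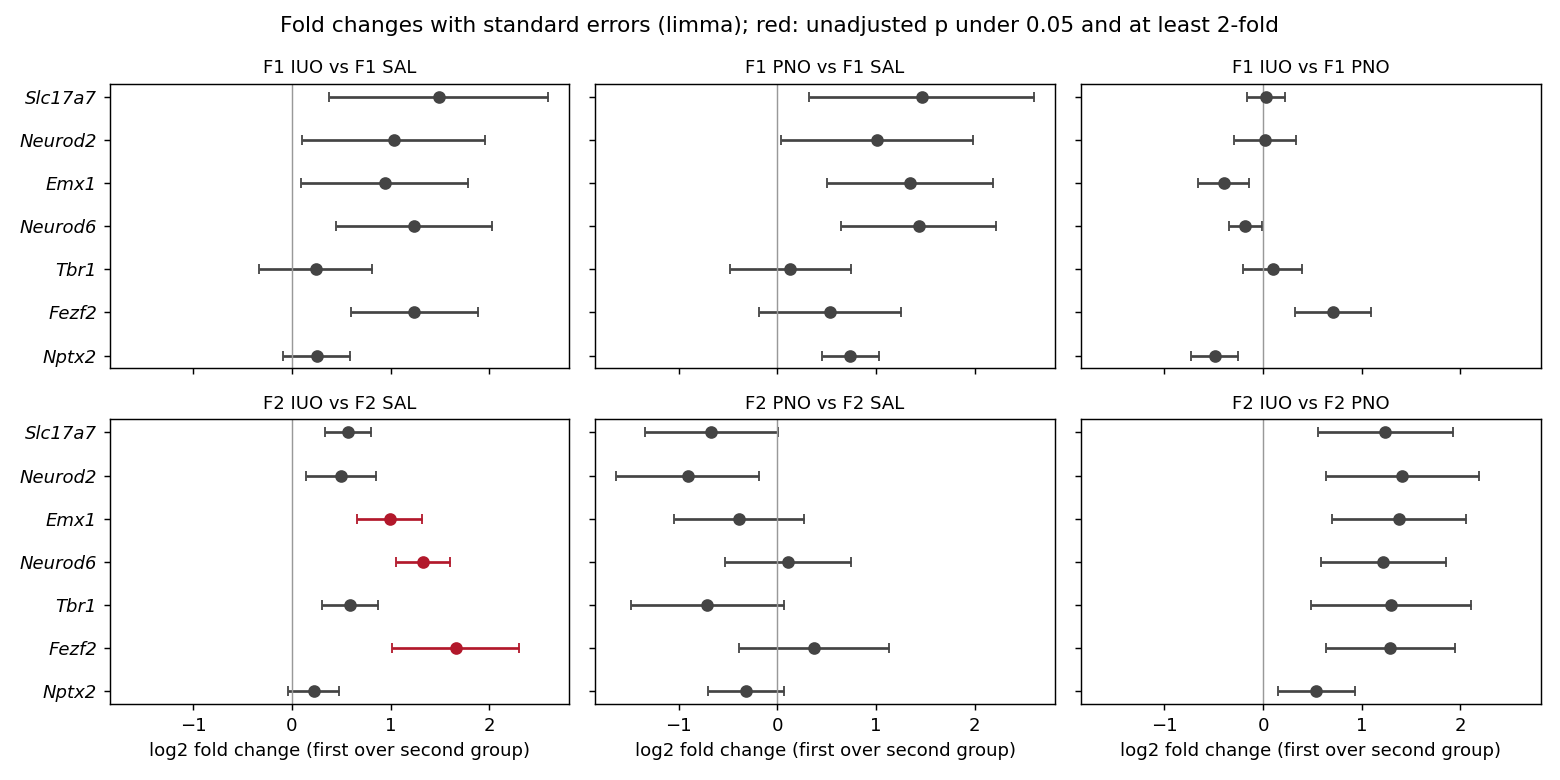
Log2 fold changes with standard errors from limma for the 7 genes (rows) in the 6 comparisons within a generation, on log2(FPKM + 0.1). Red points pass the rule of an unadjusted p under 0.05 and a 2-fold ratio, and all 3 of them (Emx1, Neurod6, Fezf2) are in F2 IUO against F2 SAL.

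In the F1 generation the saline libraries spread widely. In F1 IUO against F1 SAL all 7 genes had positive log2 fold changes, from 0.24 (Tbr1) to 1.49 (Slc17a7, SE 1.11), with a median of 1.03 against 0.01 over all genes. None was called by the rule or had an unadjusted p under 0.05 (limma, adjusted p = 0.999 for each), against 1.61% and 3.91% of all genes. For Tbr1 the mean FPKM pointed the other way, 9.78 against 10.8. Without the low F1 SAL replicate 3 the median fell to 0.01. Without the high F1 SAL replicate 4 it was 1.69, and Fezf2 and Neurod6 were called, with no share of all genes given for that fit.

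F1 PNO against the same F1 SAL libraries gave a similar picture, with a median of 1.01 against -0.05 over all genes. None was called, where the rule called 1.86% of all genes. Nptx2 had a log2 fold change of 0.74 (SE 0.287, limma p 0.0285, adjusted p = 0.307) and a 1.56-fold ratio, and 2 of 4 F1 PNO libraries were above all F1 SAL libraries (exact permutation p 0.0857). An unadjusted p under 0.05 was found for 13.9% of all genes. Without F1 SAL replicate 3 the p of Nptx2 was 0.0659 and the median of the set was 0.41. Without F1 SAL replicate 4, Fezf2, Emx1 and Neurod6 were called and the median was 1.67, again with no share of all genes given. F1 IUO against F1 PNO, which uses neither saline group, had a median of 0.02 against 0.03 over all genes. There Slc17a7 differed by 0.03 (SE 0.188), Fezf2 by 0.71 (SE 0.389) and Nptx2 by -0.49 (SE 0.235, limma p 0.0642, adjusted p = 0.334). None was called and 0 had an unadjusted p under 0.05, against 2.95% and 16.5% of all genes. Without F1 IUO replicate 4 the value of Nptx2 was -0.73, with a p of 0.00118 and an adjusted p = 0.116.

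Between generations, F2 IUO pups were set against F1 IUO pups. All 7 genes were higher in F2 IUO, with a median log2 fold change of 0.40 against -0.09 over all genes. Fezf2 was the 1 gene called (1.05, SE 0.401, 2.33-fold, limma p 0.0258, adjusted p = 0.273), where the rule called 3.32% of all genes. Neurod6 was 1.70-fold higher (0.74, SE 0.238, p 0.0111, adjusted p = 0.239) with groups that did not overlap (exact permutation p 0.0286), as was found for 10.7% of all genes. Emx1 was 1.96-fold higher (0.87, SE 0.338, p 0.0282, adjusted p = 0.280). An unadjusted p under 0.05 was found for 15% of all genes. The call of Fezf2 was lost without F1 IUO replicate 1 or 3 or F2 IUO replicate 1 or 2, and Emx1 was called with it without F1 IUO replicate 2 or F2 IUO replicate 3 or 4.

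F2 PNO against F1 PNO had a median of -0.87 against -0.06 over all genes, with 6 of 7 lower and 0 called (2.01% of all genes called). An unadjusted p under 0.05 was found for 1 of 7 and for 4.76% of all genes. Nptx2 had a log2 fold change of -0.85 (SE 0.358, limma p 0.0404, adjusted p = 0.948), with a mean of 21.5 against 35.1 FPKM and 3 of 4 F2 PNO libraries below all F1 PNO libraries. Without F2 PNO replicate 1 the median was -0.13 and 0 were called. Without F2 PNO replicate 4 it was -1.39, with Emx1 called, and Nptx2 was called without F2 PNO replicate 3. F2 SAL against F1 SAL had a median of 0.65 against -0.02, with 0 called and 0 with an unadjusted p under 0.05 (limma), against 1.45% and 8.48% of all genes. Without F1 SAL replicate 3 that median was -0.09, and without F1 SAL replicate 4 it was 1.32 with 7 of 7 higher and 0 called.

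Whether an exposure effect differed between generations was tested as an interaction in limma, with 3 such tests for each gene. For IUO against SAL 0 of 7 genes had an unadjusted p under 0.05, against 5.15% of all genes. Neurod6 differed by 0.09 (SE 0.914) and Fezf2 by 0.42 (SE 0.993), so a difference between generations was not shown for the genes called in F2. For PNO against SAL it was 0 of 7 against 4.06% of all genes, and Nptx2 had the smallest p (-1.06, SE 0.520, p 0.0583). For IUO against PNO it was 1 of 7 against 5.76% of all genes. This was Emx1, whose difference between IUO and PNO was higher by 1.78 on the log2 scale in F2 than in F1 (SE 0.767, p 0.0345, adjusted p = 0.849). No interaction had an adjusted p under 0.05 over all genes. The call of Emx1 was lost without any 1 of 9 libraries, namely F1 IUO replicate 1, 3 or 4, F2 IUO replicate 1 or 2, F1 PNO replicate 1 or 3 and F2 PNO replicate 1 or 3. Nptx2 had a p under 0.05 in its place without F1 IUO replicate 4 or F2 PNO replicate 3. Without F2 PNO replicate 4, Emx1, Slc17a7, Neurod6 and Neurod2 had a p under 0.05. For PNO against SAL, Nptx2 did so without F2 PNO replicate 2 or 3, F1 SAL replicate 1 or F2 SAL replicate 2.

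The genes were then compared with each other across libraries, with the mean of each group subtracted so that only differences within groups remained. All 21 pairs had a positive Pearson's r, with a median of 0.624. In 10 pairs the Benjamini-Hochberg adjusted permutation p over 21 pairs was under 0.05, and these were exactly the pairs among Neurod6, Tbr1, Neurod2, Slc17a7 and Emx1. Their r ran from 0.835 (Tbr1 and Emx1) to 0.959 (Neurod2 and Emx1, Spearman's rho 0.897, permutation p 1.0e-05, adjusted p = 1.0e-04). The permutation p of that pair is the smallest that 100000 permutations can give. The genes were chosen with results of these libraries known, so the p-values and the count of pairs are a description. No share over pairs of other genes is given. Neurod6 and Neurod2, whose promoters are shown above, had an r of 0.939 (rho 0.867, permutation p 2.0e-05, adjusted p = 1.0e-04). The order of libraries was still not the same for each gene. F1 IUO replicate 1 was the highest of its group for Neurod6 and Tbr1 and the lowest for Slc17a7 and Emx1.

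The 2 low libraries carried part of this relation. Without F1 SAL replicate 3 and F2 PNO replicate 1, a step chosen after seeing the data, the 10 pairs had an r from 0.67 (Neurod6 and Tbr1) to 0.889 (Neurod2 and Emx1). Each of the 10 still had an adjusted permutation p under 0.05, and 13 of 21 pairs did in all. The 3 added pairs joined Fezf2 to Neurod6, Emx1 and Neurod2. For Fezf2 and Neurod6 r rose from 0.574 (rho 0.632, permutation p 0.038, adjusted p = 0.057) to 0.779 (permutation p 0.0010, adjusted p = 0.0044). For Fezf2 and Emx1 it rose from 0.569 to 0.778, and for Fezf2 and Neurod2 from 0.526 to 0.694. Fezf2 and Tbr1, both factors of deep-layer neurons, had an r of 0.387 (permutation p 0.18) with all libraries and 0.39 without these 2.

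**Figure D4:**
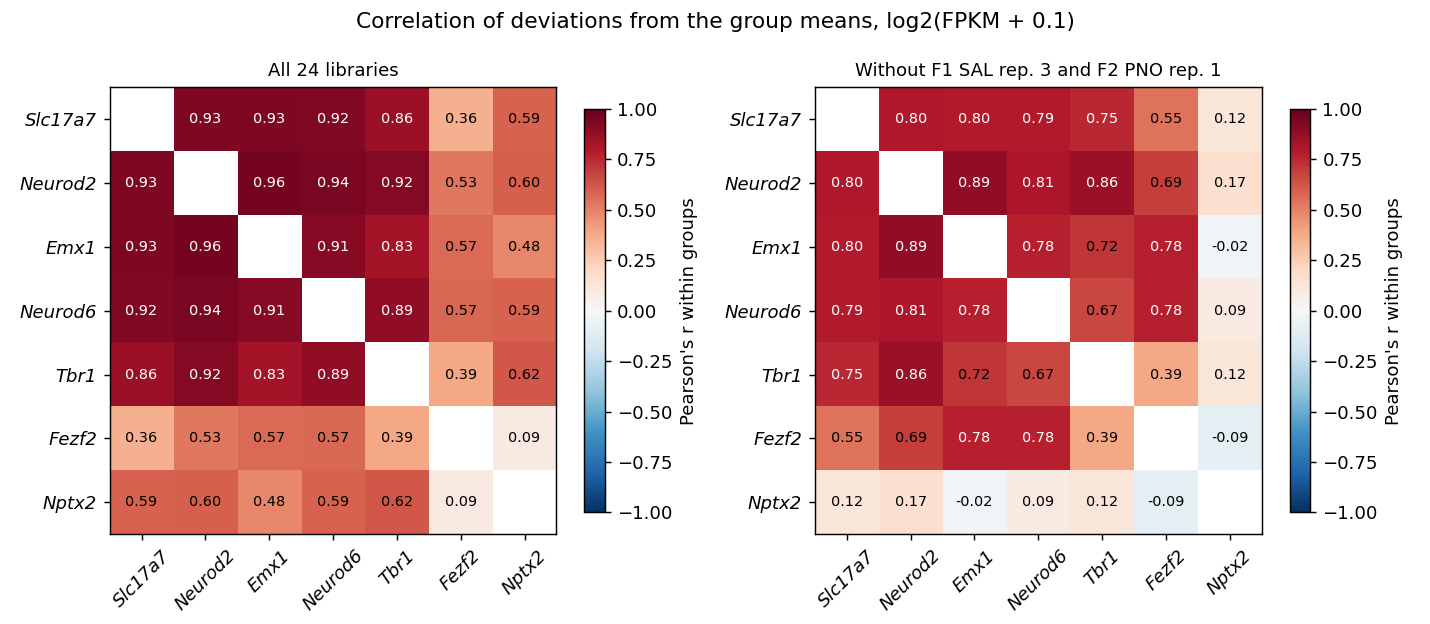
Pearson's r between the 7 genes (rows and columns) after the group means were subtracted on the log2(FPKM + 0.1) scale, with all 24 libraries on the left and without the 2 low libraries on the right. Slc17a7, Neurod2, Emx1, Neurod6 and Tbr1 form a block in both panels, and the row of Nptx2 drops to between -0.09 and 0.17 on the right.

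Nptx2 stood outside this block. Its r with the other 6 genes ran from 0.0868 (Fezf2, permutation p 0.75) to 0.624 (Tbr1, rho 0.477, permutation p 0.031, adjusted p = 0.053), and no pair had an adjusted p under 0.05. Without the 2 low libraries its r ran from -0.0901 to 0.169. With Slc17a7, r was 0.593 with all libraries and 0.122 without them. These relations therefore rested on the 2 low libraries.

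Against the further cortical list described below, Nptx2 had an r of 0.681 (rho 0.608, permutation p 0.013, adjusted p = 0.015). Without the 2 low libraries that r was 0.328 (adjusted permutation p 0.24). Nptx2 was also related to markers of other tissue. Against the mean of the striatal list its r was -0.58 (rho -0.579, permutation p 0.0055, adjusted p = 0.039 over 7 genes), and -0.675 without the 2 low libraries, which were also the 2 farthest from the median of Nptx2. For the other 6 genes r ran from -0.334 (Emx1) to -0.0145 (Fezf2), with adjusted permutation p-values of 0.65 or more. Against 5 genes of thalamus and habenula, a comparison added after seeing the data, r of Nptx2 was 0.654 (rho 0.683, permutation p 0.0035, adjusted p = 0.024) and 0.736 without the 2 low libraries. The other 6 genes had an r from -0.362 (Fezf2) to -0.00739 (Slc17a7) with that list. Without the 2 low libraries their r ran from -0.488 (Slc17a7) to -0.331 (Neurod2), with adjusted permutation p-values of 0.19 or more. The adjusted p for the striatal list rose above 0.05 in 14 of the 24 cases that left out 1 library, and for the thalamus list in 6 of 24.

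**Figure D5:**
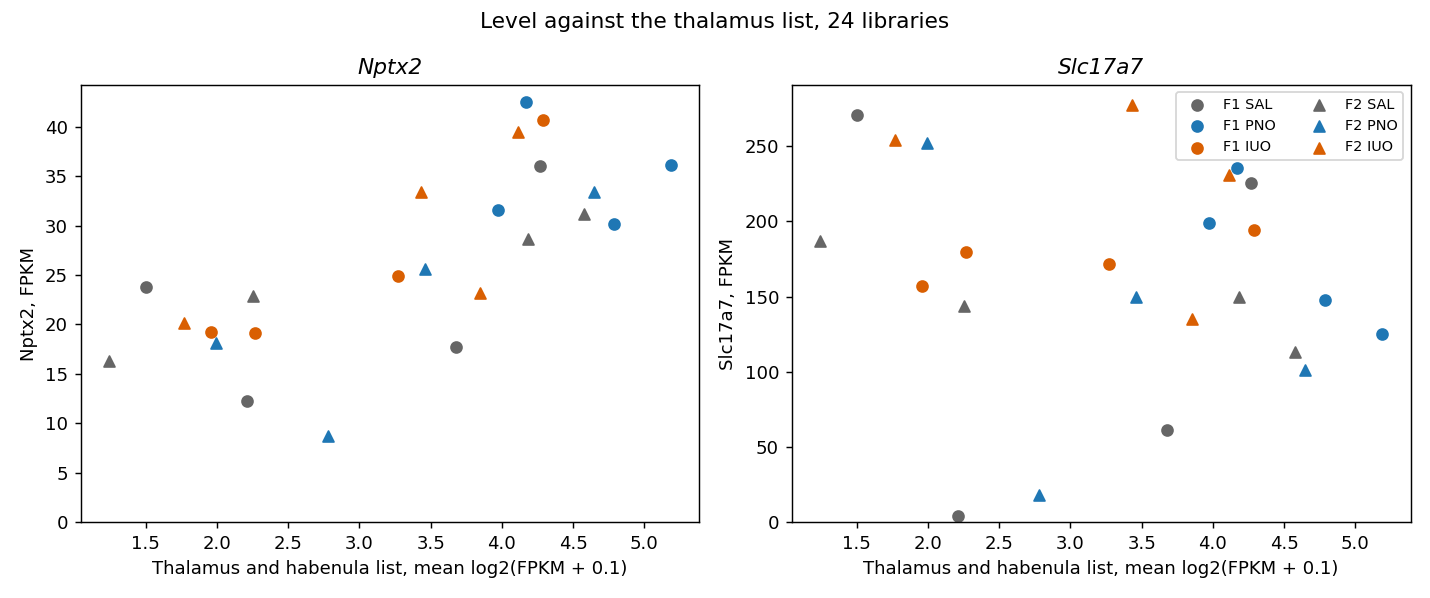
FPKM of Nptx2 (left) and Slc17a7 (right) against the mean log2(FPKM + 0.1) of the thalamus and habenula list, with 1 point per library and colour and shape for the group. Nptx2 was higher in libraries with more of the list (r 0.654 within groups, 0.736 without the 2 low libraries). For Slc17a7 r was -0.00739 with all 24 libraries and -0.488 without the 2 low libraries (permutation p 0.063).

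The thalamus list was then read in the 3 comparisons in which Nptx2 had its smallest p-values, although Nptx2 was called in none of them. In F1 PNO against F1 SAL all 5 genes of the list found were called higher (0.84% of all genes were), with a median log2 fold change of 1.63, and the list summed to between 17.53 and 146.6 FPKM in F1 SAL and between 114 and 296.4 in F1 PNO. The most abundant were Tcf7l2, a transcription factor of the thalamus, at 86.8 against 29.6 FPKM, and Slc17a6, which encodes VGLUT2, at 54.1 against 20. In F1 IUO against F1 PNO 4 of 5 were called lower (1.5% of all genes were), with a median of -1.70. In F2 PNO against F1 PNO Gbx2 was called lower (median of the list -1.22), where the rule called 2.01% of all genes. The list was chosen with results of these libraries known, and the comparisons were picked by the p-values of Nptx2. The counts are therefore a description. The part of thalamic tissue in the values of Nptx2 was not tested.

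Other members of the 2 protein families were read beside the set. Nptx1 and Nptxr, a pentraxin and the pentraxin receptor, had means of 18.5 and 135 FPKM, and neither was called in any of 9 comparisons. Nptx1 was nevertheless higher in F2 IUO than in F2 SAL by its unadjusted p, at 23.6 against 13.8 FPKM, with groups that did not overlap (log2 fold change 0.75, SE 0.147, limma p 0.000538, adjusted p = 0.251). In that comparison 5.11% of all genes had groups that did not overlap, and 8.49% had an unadjusted p under 0.05. Nptx1 and Nptxr were lowest in F2 PNO replicate 1, at 4.24 and 41.97 FPKM, with F1 SAL replicate 3 next at 6.60 and 63.84. Slc17a8, which encodes VGLUT3, averaged 1.30 FPKM and was lower in F2 IUO than in F1 IUO (0.700 against 1.58 FPKM, log2 fold change -1.22, SE 0.464, limma adjusted p = 0.271). Slc17a6 was called in 2 comparisons, namely F1 PNO against F1 SAL (1.74) and F1 IUO against F1 PNO (-1.84, with groups that did not overlap, as for 10.5% of all genes). Slc17a7 was called in none of the 9.

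A further list held 14 other genes of cortical excitatory neurons and their progenitors, and all 14 were found. The most abundant were Slc30a3, the zinc transporter of synaptic vesicles, at a mean of 32.7 FPKM, the transcription factor Mef2c at 26.7 and the LIM homeobox factor Lhx2 at 12.8. Eomes was listed at 0 in 9 libraries and Neurog2, a factor of cortical progenitors, in 11. Both enter the mean of the list with the weight of any other gene, although their levels are near 0. The SD of the log2 level over 24 libraries was 1.29 for Eomes, 0.702 for Neurog2, 1.33 for Mef2c and 0.321 for Lhx2. Within groups the mean of the list rose with 6 of the 7 genes by an adjusted permutation p under 0.05, with r up to 0.833 (Tbr1, rho 0.619, permutation p 0.0049, adjusted p = 0.0083). For Fezf2 r was 0.483 (adjusted permutation p 0.057). Without the 2 low libraries 2 of 7 remained (Emx1, r 0.724, and Neurod2, 0.72), and 2 of 7 passed without F2 PNO replicate 1 alone.

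Members of this list did not all share the low libraries. Slc30a3 was 3.10 FPKM in F1 SAL replicate 3 and 6.02 in F2 PNO replicate 1, the 2 lowest values of the 24. Mef2c was 12.09 and 0.61, and Lhx2 was 11.77 and 9.18 against a range of 8.07 to 19.57. In F2 IUO against F2 SAL, 1 of 13 tested genes of the list was called higher and 0 lower, with a median log2 fold change of 0.05 against -0.08 over all genes. This was Nr4a2, an orphan nuclear receptor (1.06, SE 0.320, 10.2 against 4.46 FPKM, limma adjusted p = 0.495, groups not overlapping). Over all genes 0.503% were called higher there, and 5.11% had groups that did not overlap. Tle4, a corepressor of deep-layer neurons, was called in F1 IUO against F1 PNO (1.0, SE 0.188, 10.4 against 5.13 FPKM, limma adjusted p = 0.0852, groups not overlapping). In that comparison the rule called 2.95% of all genes, and 10.5% had groups that did not overlap. No gene of the list was called in the other 7 comparisons, where its median ran from -0.42 (F2 PNO against F1 PNO) to 0.38 (F2 IUO against F2 PNO).

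Markers of the surrounding cells and regions were read in the comparison with the most calls, F2 IUO against F2 SAL. All 10 striatal genes had a lower mean log2 level in F2 IUO, with a median of -0.51 and 0 called. Their sum ran from 791.9 to 1062 FPKM in F2 SAL and from 428.9 to 1012 in F2 IUO, where it was lowest in replicates 1 and 3. Of 5 thalamus genes 0 were called (median 0.21), of 6 tested hypothalamus genes 0 (median 0.90), and of 7 choroid plexus genes 0 (median 0.75). Ttr, the main choroid plexus transcript, was 12103.13 FPKM in F2 IUO replicate 1 and at most 77.34 in F2 SAL. Of 6 interneuron, 5 oligodendrocyte and 4 astrocyte genes 0 were called in each list, with medians of -0.06, -0.14 and -0.12. All 4 microglia genes had a lower mean log2 level in F2 IUO (median -0.46), and the mean of the list ran from 3.71 to 4.05 in F2 IUO and from 4.12 to 4.48 in F2 SAL, with no overlap. The 1 microglia gene called was P2ry12, a purinergic receptor (-1.02, 7.09 against 14.8 FPKM, adjusted p = 0.208 by limma). All 3 tested red cell rows had a higher mean log2 level in F2 IUO (median 1.66), and 2 of them were called higher. The 2 rows of the hemoglobin gene Hba-a2 had log2 fold changes of 1.97 and 1.66. Over all genes the rule called 2.18% in this comparison, and 0.503% in the higher direction. The 1 endothelial gene tested, Flt1, was not called (-0.43). The part of tissue makeup in the values of Neurod6, Fezf2 and Emx1 was not tested. In F2 IUO against F1 IUO the median of the striatal list was -0.72. Pde10a was called lower there (12 against 27.3 FPKM), where the rule called 3.32% of all genes. The median of the list was -0.39 in F2 IUO against F2 PNO and -0.43 in F1 PNO against F1 SAL, with 0 called in each. In F1 IUO against F1 PNO all 10 striatal genes had a higher mean log2 level, with a median of 0.63 and 0 called. An unadjusted p under 0.05 by limma was found for 7 of these 10 and for 16.5% of all genes. Penk had the smallest of the 7 (limma p 0.002, adjusted p = 0.123).

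The genes whose levels were most like the mean of the 7 were found by Pearson's r over 24 libraries among 13544 genes with at least 1 FPKM in 12 or more libraries. They were Rtn4rl2, a Nogo receptor relative (r 0.952), Mical2, an enzyme that oxidises actin (0.947), Bhlhe22, a basic helix-loop-helix factor (0.936), Slc30a3 (0.934) and Prdm8 (0.927). With group means subtracted the values were 0.947, 0.938, 0.936, 0.928 and 0.934. Rtn4rl2 ranged from 0.94 to 38.93 FPKM and Bhlhe22 from 0.17 to 4.38. These genes were chosen for their likeness, so no test is given.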

How the data were processed

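RNA of the NAc was measured in 24 pups, 4 in each group. Per the labels and the methods, the authors merged the transcriptomes of the samples and deposited FPKM values per gene from StringTie. HISAT2, SAMtools and edgeR are named without a version in the submitters' processing notes. Genome build and read numbers are not given in the sources used here. FPKM values are not counts, so edgeR was not used, and values were not rescaled between libraries.

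Fits used limma 3.58.1 (R 4.3.3, lmFit and eBayes with a trend) on log2(FPKM + 0.1). A gene was tested where 4 or more libraries of the comparison reached an FPKM of 0.1, and all 7 genes passed in every comparison. Adding 0.1 understates changes of low genes. The Benjamini-Hochberg adjustment ran over all genes tested, and tests are two-sided. Called means an unadjusted p under 0.05 and mean FPKM that differ 2-fold or more, and the 1.5-fold of the methods was run as an alternative. Exact permutation tests used the 35 splits of 4 against 4 libraries, and correlations 100000 permutations within groups. Group means are of FPKM and fold changes of log2 values, so they can differ in direction.

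The 7 genes and the marker lists were chosen with earlier results of these data known. Named from a list were its 3 most abundant genes and called genes a sentence turns on. Followed through the alternatives were genes with an unadjusted p under 0.05, and Nptx2. Tac2 and Pecam1 matched no gene symbol, and 1 gene of the further cortical list is not reported here and was left out of every value of that list. Alternatives were another pseudocount, filter, scaling or fold, a replicate block, 1 fit of all libraries and leaving out each library. Shares of all genes are from fits with every library, and none is given for fits without 1 library. The labels give no batch. The scripts were tested on simulated data. Tables and figures were made in Python 3.11.15 with pandas 2.3.3, numpy 2.4.6 and matplotlib 3.10.9.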

Additional observations from a re-analysis of the deposited data

Results flagged for a closer look

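Fezf2 in F1 SAL was flagged because 1 library lay far from the other 3. Replicate 4 had 12.31 FPKM, and its gap to the nearest library was 0.857 of the whole range of the group, above Dixon's critical value for 4 samples. Of 42 sets of 1 gene and 1 group, 1 was flagged, and chance alone would flag about 2.1. The same library was the highest of its group for 6 of 7 genes.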

How the results depend on the processing

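Of the 21 correlation pairs 10 were called with group means subtracted and 19 without. Counts of called genes were 0 in F1 PNO against F1 SAL and in F2 PNO against F1 PNO and became 1 in each at 1.5-fold (Nptx2), where F2 IUO against F1 IUO went from 1 to 3. A fit of all 24 libraries gave 1 in F2 IUO against F2 SAL and 0 in F2 IUO against F1 IUO. Rescaling every library to the same sum gave 0 in F2 IUO against F1 IUO, 0 for the interaction of IUO against PNO and 0 for the striatal list, and shifted the median of all genes in F2 IUO against F1 IUO to -0.21. Upper-quartile rescaling gave 2 for that interaction (Nptx2 and Emx1) and shifted the median in F2 IUO against F2 SAL to -0.15. Spearman's rho gave 0 for the striatal list, and the further cortical list went from 6 to 2 without the 2 libraries farthest from the median and to 2 without the 2 low libraries. The cause of these changes was not tested.

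Leaving out 1 library at a time, called counts ran from 0 to 2 in F1 IUO against F1 SAL, 0 to 3 in F1 PNO against F1 SAL, 1 to 3 in F2 IUO against F2 SAL, 0 to 1 in F2 PNO against F2 SAL, 0 to 5 in F2 IUO against F2 PNO, 0 to 1 in F2 PNO against F1 PNO and 0 to 2 in F2 IUO against F1 IUO, and stayed at 0 in the other 2 comparisons. Interaction counts ran from 0 to 1 for PNO against SAL and 0 to 4 for IUO against PNO. Correlation counts ran from 10 to 14 for pairs, 0 to 1 for the striatal list, 2 to 7 for the further cortical list (2 without F2 PNO replicate 1) and 0 to 1 for the thalamus list. Nptx2 changed sign in F1 IUO against F1 SAL (-0.00373 to 0.51, lowest without F1 SAL replicate 3) and in F2 PNO against F2 SAL (-0.59 to 0.05, highest without F2 PNO replicate 1).

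Neurod6 kept a p under 0.05 in F2 IUO against F2 SAL in 14 of 15 alternatives, Emx1 in 14, Fezf2 in 10 and Slc17a7 in 8. The adjusted p of Neurod6 ran from 0.241 to 0.911 over these alternatives. Same-numbered libraries had correlations of their deviations from -0.269 to 0.121 and share only a number (0 of 9 comparisons had every pair above 0.1). With the replicate block 3 genes were called in F2 IUO against F2 SAL and 1 in F2 IUO against F1 IUO, as without it. Over all genes the rule called 373 in F2 IUO against F2 SAL, 136 with a filter of FPKM of at least 1 and 569 with no filter. Of the genes called in F1 IUO against F1 PNO, 50.8% were lower in F1 IUO. That share of the called genes was 67.2% after upper-quartile rescaling and 39.5% after rescaling to the same sum. Depth is unknown and sets a limit that cannot be given.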
